A study of Mus musculus with 10 samples.

Results

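The anterior Hoxa genes are Hoxa2, Hoxa3, Hoxa4, Hoxa5, Hoxa6 and Hoxa7, 6 of the 22283 protein-coding genes placed on the mouse mm9 genome by GENCODE vM1. They were chosen by name and position. A site of one of the 4 deposited lists was assigned to a gene when it shared at least 1 bp with the gene body or the 5 kb on each side of it. All 6 genes lie on the minus strand of chromosome 6, and their windows together form 1 stretch of 69504 bp, chr6:52107350-52176853. This stretch held 16 of the 8876 Suz12 binding sites, 13 of the 5722 Suz12-depleted sites, 15 of the 5242 Pcl3 binding sites and 4 of the 678 H3K27me3-depleted sites.

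The study sequenced chromatin immunoprecipitates (ChIP-seq) from mouse embryonic stem cells (ESCs) to ask how Pcl3 acts on Polycomb repressive complex 2. Its 10 libraries, 6 from ChIP and 4 from input DNA, comprised 1 per condition. Suz12 and H3K27me3 were profiled in XG122, a gene trap line from BayGenomics whose genotype, Suz12 Suz12TAP/+, gives it 1 tagged Suz12 allele, with either a scramble shRNA or a Pcl3 shRNA (shRNA6 by the label of the matching input). Pcl3 was profiled in E14 ESCs that carried Pcl3-TAP together with shRNA7 or shRNA6 against the wild-type Pcl3, so that the protein measured was a re-expressed and tagged one. Both tagged proteins were precipitated with the anti-FlagM2 antibody and the histone mark with an antibody from Upstate (07-449). Since the Pcl3 list came from another ESC line than the Suz12 and H3K27me3 lists, line and protein cannot be told apart where these lists differ. The 2 Pcl3-TAP ChIP libraries shared 1 list. No condition had a replicate library, so no difference read from these lists has a replicate check and no test between conditions was run.

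Hox genes encode homeodomain transcription factors that give cells their position along the head-to-tail axis. Within a cluster they lie in the order in which they are used along that axis, and in ESCs, before any axis exists, the clusters are silent and covered by Polycomb proteins. Suz12 is a core subunit of Polycomb repressive complex 2 (PRC2), which methylates lysine 27 of histone H3 to give H3K27me3, and Pcl3 (also called Phf19) is a Polycomb-like protein that joins this complex. In mammals PRC2 is found mostly at unmethylated stretches rich in the dinucleotide CpG.

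The bases before the start sites show how unlike each other these 6 genes are in that respect. The following stretches are the 150 bp before the start of the transcript with the longest coding sequence, read on the minus strand from mm9, with each CpG in capitals. For Hoxa3 these bases lie in an annotated untranslated exon of a longer transcript, and they are not shown.
Hoxa2, chr6:52115413-52115562: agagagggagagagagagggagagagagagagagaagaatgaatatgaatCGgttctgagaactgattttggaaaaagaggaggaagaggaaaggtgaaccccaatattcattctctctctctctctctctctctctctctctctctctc
Hoxa4, chr6:52141753-52141902: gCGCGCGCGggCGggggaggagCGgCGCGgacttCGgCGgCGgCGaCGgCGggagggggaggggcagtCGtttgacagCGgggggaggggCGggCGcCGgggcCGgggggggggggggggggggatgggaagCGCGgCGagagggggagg
Hoxa5, chr6:52154587-52154736: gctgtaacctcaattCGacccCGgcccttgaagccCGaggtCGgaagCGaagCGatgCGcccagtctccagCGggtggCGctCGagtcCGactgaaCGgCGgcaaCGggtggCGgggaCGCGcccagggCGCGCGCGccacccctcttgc
Hoxa6, chr6:52158722-52158871: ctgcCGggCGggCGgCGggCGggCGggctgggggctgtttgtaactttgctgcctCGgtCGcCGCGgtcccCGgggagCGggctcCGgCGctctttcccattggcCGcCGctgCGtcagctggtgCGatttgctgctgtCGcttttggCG
Hoxa7, chr6:52167505-52167654: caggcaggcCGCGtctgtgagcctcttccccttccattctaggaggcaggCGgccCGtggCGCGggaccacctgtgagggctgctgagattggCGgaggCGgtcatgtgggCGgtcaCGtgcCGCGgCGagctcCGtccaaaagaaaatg
The Hoxa2 stretch, mostly repeats of GA and TC, held 1 CpG, whereas those of Hoxa4, Hoxa5, Hoxa6 and Hoxa7 held 23, 21, 20 and 14. In the 300 bp from 250 bp before to 50 bp after the start, Hoxa2 had 0.667 CpG per 100 bp, below the median of 4 over 22225 protein-coding genes. In the same window Hoxa4 had 15.7, which exceeded 98.1% of those genes. The Hoxa3, Hoxa5, Hoxa6 and Hoxa7 windows had 6.67, 9.67, 9.67 and 8 CpG per 100 bp. The hexamer GCGCGC, searched as those letters (it reads the same on both strands, and overlapping copies were each counted), occurred 5 times at the start of Hoxa4 and 3 times at that of Hoxa5. It was absent from the other 4 windows and present in 17.3% of all windows of this length.

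All 6 genes had Suz12 sites, against 28.8% of protein-coding genes with a Suz12 site in the same kind of window. All 6 also had Pcl3 sites, against 14.7% of genes. The start site and the whole coding sequence of every member lay inside a site of both lists. This held for Hoxa2 as for Hoxa4, whose starts differed most in CpG. In the 1000 bp centered on the start, a wider window than the one above, Hoxa2 had 3.1 CpG per 100 bp and Hoxa4 12.5. The members differed instead in how much of the surrounding sequence was covered. Windows of neighboring genes overlap and share sites, so the 6 genes are not 6 independent measurements.

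**Figure D1:**
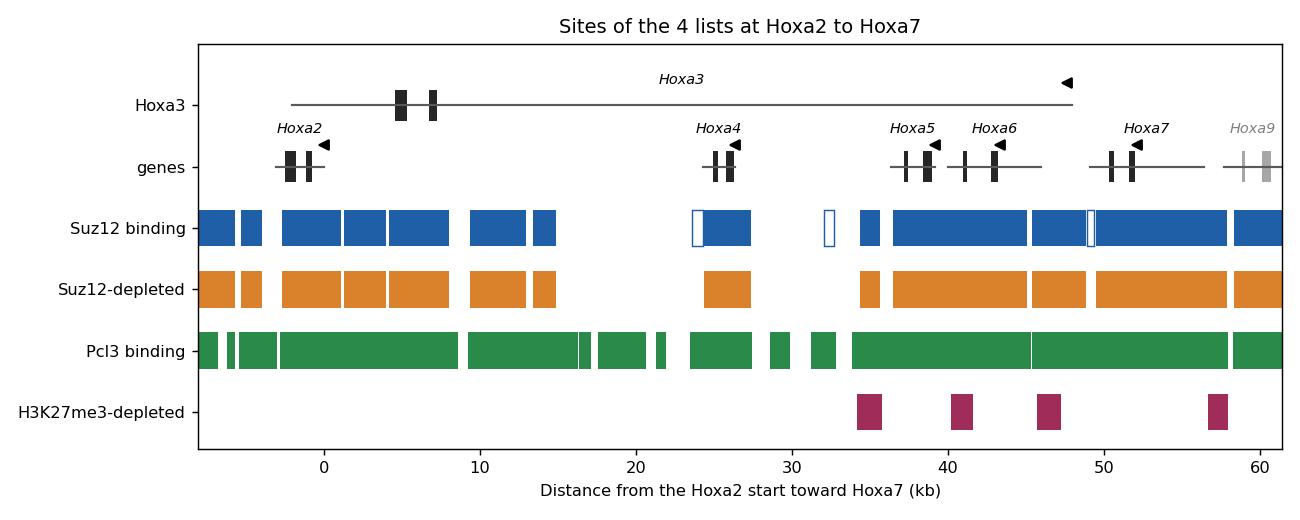
Sites of the 4 lists (colored bars, 1 row per list) along the anterior Hoxa genes, drawn by distance in kb from the Hoxa2 start toward Hoxa7, with gene bodies as lines, coding exons as boxes and start sites as arrowheads; Hoxa9 in gray is a neighbor. Open Suz12 bars are the 3 sites that were not in the Suz12-depleted list, and the 4 H3K27me3-depleted sites all lie on the side of the map that holds Hoxa5, Hoxa6 and Hoxa7.

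Hoxa2, which patterns the hindbrain and the second pharyngeal arch, is annotated at chr6:52112350-52115412. Suz12 sites covered 83.9% of its 13063 bp window and Pcl3 sites 92%. The Suz12 site over its start and coding sequence, chr6:52112701-52116500, was 3800 bp wide with a deposited p of 1.5e-260, and 555 of the 8876 Suz12 sites had a smaller p. The Pcl3 site there was much wider. It ran for 11400 bp, chr6:52112601-52124000, through the coding exons of both Hoxa2 and Hoxa3, and its p was written as 0, which in these lists stands for a value too small for the number format. It spanned 3 separate Suz12 sites.

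Hoxa3, which is needed for the thymus, the parathyroid and other derivatives of the third pharyngeal pouch and arch, has a gene body of chr6:52113358-52163338 when its 2 annotated gene entries (ENSMUSG00000059723.6 and ENSMUSG00000079560.5) are joined. This body contains Hoxa4, Hoxa5 and Hoxa6, so its 59981 bp window shares their sites. Suz12 sites covered 66.2% of it and Pcl3 sites 86.7%. The coding exons of the transcript with the longest coding sequence are confined to chr6:52119942-52122648, inside a Suz12 site of 3800 bp, chr6:52119601-52123400, with a p of 7.66e-234. The start of that transcript lies far away, at position 52163066, inside another Suz12 site, chr6:52160801-52164250, with a p written as 0. Around the coding exons alone with 5 kb on each side, the Suz12 share was 85.8%.

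Hoxa4, a gene of the cervical axial skeleton, was the least covered. The Suz12 share of its 12083 bp window was 31% and the Pcl3 share 61.1%. Its own Suz12 site, chr6:52139751-52142800, was 3050 bp wide with a p of 2.64e-180 and held 6.72 CpG per 100 bp, the highest density among the 16 Suz12 sites. On its 3′ side came a small site of 700 bp, 50 bp away, and then 8700 bp without a Suz12 site, chr6:52130301-52139000. On its 5′ side 4650 bp had none, chr6:52142801-52147450.

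Hoxa5, needed for the respiratory tract and the cervical and thoracic skeleton, Hoxa6, expressed in the trunk, and Hoxa7, which acts in the axial skeleton, were covered more densely. Suz12 sites took 75.5% of the Hoxa5 window, 91.8% of the Hoxa6 window and 94.5% of the Hoxa7 window. The Pcl3 shares were 92.2%, 99.4% and 97.4%. One Suz12 site of 8650 bp, chr6:52151851-52160500, held the whole coding sequence of both Hoxa5 and Hoxa6, and 33 of the 8876 Suz12 sites were wider. One of 8400 bp, chr6:52164901-52173300, held that of Hoxa7, and 41 were wider. Both had a p written as 0. In all, 5 of the 16 Suz12 sites here had such a p, against 4.9% of the whole list. Of the 16 sites, 3 were at least 4000 bp wide, against 3.83% of the list.

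**Figure D2:**
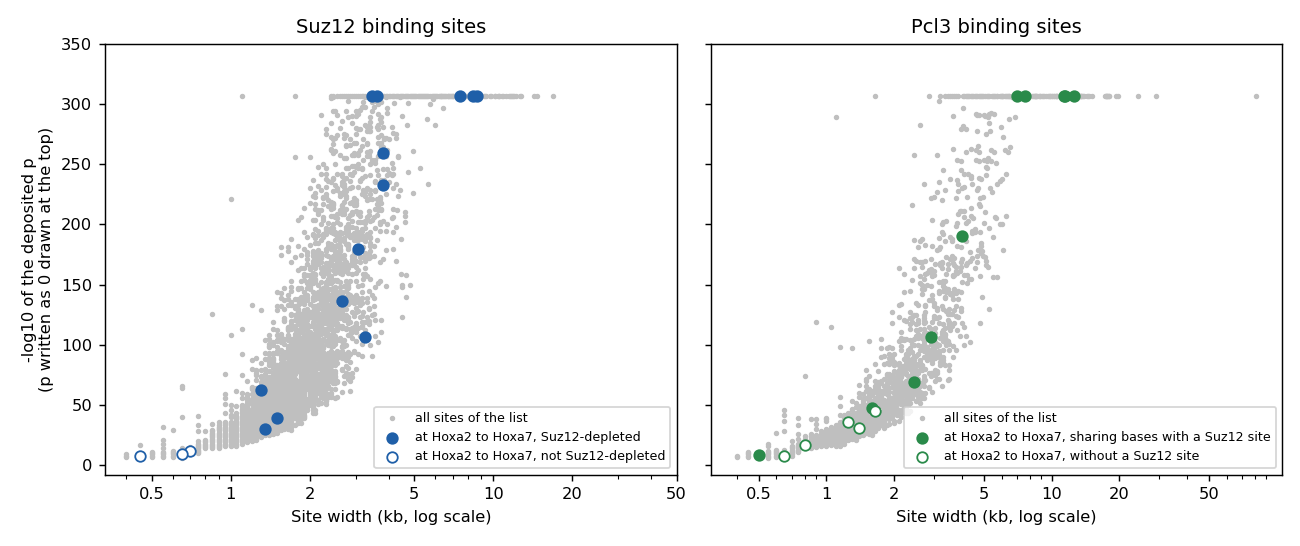
Width in kb (log axis) against −log10 of the deposited p for every Suz12 site (left) and Pcl3 site (right), gray, with the sites at Hoxa2 to Hoxa7 in color and p-values written as 0 drawn at the top of the scale. The 3 open blue points, the Suz12 sites outside the Suz12-depleted list, are 450, 650 and 700 bp wide and sit at the bottom left, and the 5 open green points are Pcl3 sites that share no base with a Suz12 site.

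Whether Suz12 occupancy fell with the Pcl3 shRNA was read from the Suz12-depleted list. All 6 genes had a Suz12-depleted site, against 20.7% of protein-coding genes, and 13 of the 16 Suz12 sites at them were in that list, against 64.5% of all Suz12 sites. The 13 sites held 96.3% of the Suz12-bound bases of the stretch. Every start site and every coding sequence lay in a depleted site. The p-value in the depleted list is the one the site has in the Suz12 binding list, for all 5722 sites, so it measures binding in scramble cells and gives no size for the loss.

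The 3 Suz12 sites outside the depleted list were the 3 with the largest p-values and the smallest widths. The first, chr6:52139001-52139700, reaches the 3′ end of Hoxa4 and had a p of 1.47e-12. The second, chr6:52147451-52148100, lies between Hoxa4 and Hoxa5 within the Hoxa3 gene body and had a p of 7.98e-10. The third, chr6:52164301-52164750, lies at the 3′ end of Hoxa7 and had a p of 4.26e-08. None of the 3 overlapped a coding exon. The weakest of the 13 depleted sites, downstream of Hoxa2, had a p of 9.8e-31. Membership in the depleted list followed p in the whole list too. Of the 2141 Suz12 sites with a p of 1.47e-12 or larger, 8.92% were in the depleted list, of the 6300 with a smaller p above 0 it was 80.9%, and of the 435 with a p written as 0 it was 100%. Among the 4103 sites elsewhere with a p of 9.8e-31 or smaller, 98.2% were depleted. The split among the members, with 3 weak sites kept and 13 stronger ones depleted, thus ran the same way as in the whole list. Whether Suz12 fell at the 3 sites was not detectable from these lists.

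All 16 Suz12 sites shared bases with a Pcl3 site, against 44.3% of all Suz12 sites and 100% of those with a p written as 0. In bases, 98.8% of the Suz12-bound sequence of the stretch lay in Pcl3 sites, while 78.8% of the Pcl3-bound sequence lay in Suz12 sites. Pcl3 sites covered 88% of the stretch and Suz12 sites 70.2%. Most of the 12950 bp found in Pcl3 sites only lay in the Hoxa3 gene body on both sides of Hoxa4. There, 5 of the 15 Pcl3 sites shared no base with a Suz12 site. On the Hoxa3 coding side of Hoxa4 they were chr6:52131751-52132550 with a p of 2.8e-17, chr6:52132951-52134350 with a p of 1.57e-31, chr6:52134401-52136050 with a p of 5.47e-46, and chr6:52136701-52137350 with a p of 1.2e-08. On the Hoxa5 side it was chr6:52144001-52145250 with a p of 8.72e-37. The 5 sites were 650 to 1650 bp wide. The converse was rare: 600 bp of the stretch lay in a Suz12 site and not in a Pcl3 site.

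**Figure D3:**
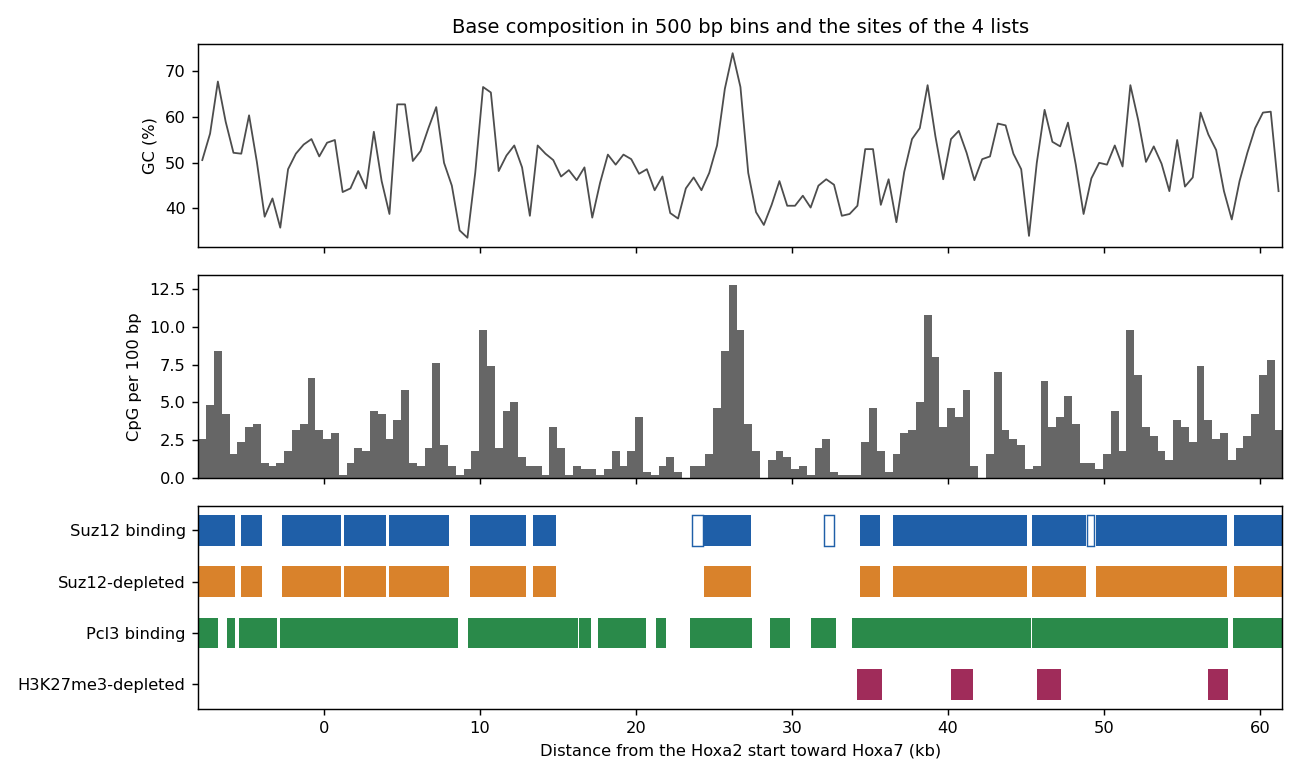
GC content (percent, top) and CpG per 100 bp (middle) in 500 bp bins along the anterior Hoxa genes, above the sites of the 4 lists, against distance in kb from the Hoxa2 start toward Hoxa7. CpG peaks at Hoxa4, where the 3050 bp Suz12 site holds 6.72 CpG per 100 bp, and the 9 gaps of at most 500 bp between Suz12 sites have a median GC content of 37.3%.

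Base composition differed between the classes of sequence. Sequence in both Suz12 and Pcl3 sites held 52.9% GC and 3.68 CpG per 100 bp. Sequence in Pcl3 sites only held 44.8% and 1.16. Sequence in neither, 7750 bp in all, held 39.5% and 0.606. The 600 bp in Suz12 sites only had the highest values, 63.5% and 5. For both, Pcl3 only and neither, the same order was found in the posterior Hoxa stretch (Hoxa9 to Evx1), with 53.1%, 45% and 43.2% GC. That stretch overlaps the end of this one. From Hoxb2 to Hoxb7 the order was again the same, with 52%, 44.9% and 40.7%. The following stretches of mm9, read on the plus strand with each CpG in capitals, show the kinds of sequence side by side. They are the middle of the H3K27me3-depleted site with the smallest p (bound by both proteins), the middle of the Pcl3 site with the smallest p of the 5 without Suz12, the middle of the Suz12 site next to Hoxa4 that was not in the depleted list, and a gap of 100 bp at which both the Suz12 and the Pcl3 lists break.
Depleted site, chr6:52161801-52161950: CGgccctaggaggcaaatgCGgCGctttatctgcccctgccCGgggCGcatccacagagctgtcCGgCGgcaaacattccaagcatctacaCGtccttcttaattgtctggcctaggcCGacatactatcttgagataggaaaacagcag
Pcl3 without Suz12, chr6:52135151-52135300: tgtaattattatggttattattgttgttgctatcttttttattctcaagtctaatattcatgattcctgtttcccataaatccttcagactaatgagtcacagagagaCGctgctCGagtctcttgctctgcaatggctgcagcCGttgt
Suz12 not depleted, chr6:52139276-52139425: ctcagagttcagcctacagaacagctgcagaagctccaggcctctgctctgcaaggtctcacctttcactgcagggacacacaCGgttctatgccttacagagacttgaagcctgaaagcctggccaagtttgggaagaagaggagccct
Shared gap, chr6:52160701-52160800: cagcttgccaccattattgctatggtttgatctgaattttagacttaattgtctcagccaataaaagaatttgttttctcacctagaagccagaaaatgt
They held 9, 3, 1 and 0 CpG, in that order.

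The shared gap lies in an intron of Hoxa3 and of a longer Hoxa6 transcript, and it splits what would otherwise be an unbroken Pcl3 site from chr6:52149251 to chr6:52173350. Its GC content was 35%. Other breaks fell together as well: both lists broke at the 3′ end of Hoxa2, within the Hoxa3 gene body beyond its coding exons, and at the 3′ end of Hoxa9, where 200, 650 and 350 bp were in neither list. The 9 gaps of at most 500 bp between Suz12 sites had a median GC content of 37.3%, against 52.4% in the sites beside them, and each of the 9 was lower than its neighbors. Of the 7 such gaps between Pcl3 sites, 6 were lower. Over the genome 80.1% of 845 short Suz12 gaps and 78.2% of 999 short Pcl3 gaps were lower in GC than the sites beside them. Reads were kept only where they aligned to a single place. Of the 30-base words that start in the sequence outside both lists 97.6% occur once in mm9, and of those in both lists 98.8%. The part of GC content and of unique alignment in the breaks was not tested.

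The H3K27me3-depleted list marks where the histone mark fell with the Pcl3 shRNA. It held 4 sites here, at 4 of the 6 genes, Hoxa3, Hoxa5, Hoxa6 and Hoxa7, against 3.13% of protein-coding genes with such a site. The Hoxa2 and Hoxa4 windows had none. Of the 16 Suz12 sites, 4 shared bases with one, against 6.89% of all Suz12 sites and 22.3% of those with a p written as 0. That share varied by chromosome: it was 3.56% of the 449 Suz12 sites on chromosome 6, these included, and 17.7% on chromosome 11. The nearest site to the Hoxa2 start was 34189 bp away and the nearest to the Hoxa4 start 7849 bp away.

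The first of the 4, chr6:52149601-52151150, lies in the Hoxa3 gene body beyond the 3′ end of Hoxa5 and had a p of 6.34e-09. The second, chr6:52155601-52157000, covers the 3′ part of Hoxa6 with 36.9% of its coding sequence and had a p of 1.22e-08. The third, chr6:52161101-52162650, ends 416 bp from the Hoxa3 start and had a p of 5.68e-11. The fourth, chr6:52172051-52173350, lies upstream of Hoxa7, over the 3′ end of Hoxa9, and had a p of 7.59e-08. None of them covered the start of a member. Their widths of 1300 to 1550 bp were close to the median of that list, 1350 bp. Of the 678 sites, 187, 367, 410 and 601 had smaller p-values, so these were not among the sites with the smallest p. Whether the p of this list measures the loss or the level of the mark was not checked. All 4 lay wholly in Pcl3 sites, and 94.8% of their bases lay in Suz12-depleted sites. The Suz12-depleted list thus reached every member. The H3K27me3-depleted list reached the gene bodies of Hoxa3 and Hoxa6, and Hoxa5 and Hoxa7 only in the 5 kb beside their gene bodies. A place outside the H3K27me3-depleted list is one where no loss passed the authors' threshold in 1 pair of libraries, and no list of the mark itself was used to say how much of it Hoxa2 and Hoxa4 carried.

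The study's primer pair named for Hoxa3 falls among these sites. With repeated ChIP followed by quantitative PCR, the study reports lower Suz12 binding and H3K27me3 with the Pcl3 shRNA at a set of loci that includes Hoxa3. Its sequences, taken from the study's primer list, were placed on mm9 within the cluster.
Forward, chr6:52150053-52150072: tcacaggctggtgagaacac
Reverse, chr6:52150270-52150289: agggtcatttggcaagactg
The 237 bp between their outer ends lie in the Hoxa3 gene body but 1464 bp from the 3′ end of Hoxa5 and 27405 bp from the Hoxa3 coding exons described above. They lie inside a site of each of the 4 lists, including the first H3K27me3-depleted site. The coding exons of the Hoxa3 transcript with the longest coding sequence lie in no H3K27me3-depleted site, whereas a coding exon of another annotated Hoxa3 transcript overlaps the first one.

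Non-coding and overlapping genes inside the stretch shared its sites. The starts of Gm15051, 5730446D14Rik, Gm15050 and 2700086A05Rik, annotated on the plus strand opposite the Hox genes, and of 5730596B20Rik, annotated as protein-coding, were each covered by the Suz12, Suz12-depleted and Pcl3 lists. None of these 5 starts lay in an H3K27me3-depleted site. The long non-coding 2700086A05Rik runs from the Hoxa3 coding side to Hoxa7, and 57.9% of it lay in Suz12 sites, 84.2% in Pcl3 sites and 11.3% in H3K27me3-depleted sites.

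The posterior genes of the cluster and the paralogues show how far this pattern is shared. Over the 6 members the median share of the window in Suz12 sites was 79.7%, in Suz12-depleted sites 77.2%, in Pcl3 sites 92.1% and in H3K27me3-depleted sites 12%. Over the 5 genes Hoxa9, Hoxa10, Hoxa11, Hoxa13 and Evx1 these medians were 78.8%, 67%, 96.4% and 7.23%. Over the 11 paralogues of groups 2 to 7 in the other clusters they were 65.4%, 65.4%, 98.9% and 5.2%. Over all protein-coding genes each median was 0. All 6 members, the 5 posterior genes and the 11 paralogues had Suz12, Suz12-depleted and Pcl3 sites, and 7 of the 11 paralogues and 3 of the 5 posterior genes had an H3K27me3-depleted site. The posterior stretch overlaps that of the members, so the 2 are not separate. It held 2 H3K27me3-depleted sites, and the one at Hoxa9 is the fourth site of the members described above.

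**Figure D4:**
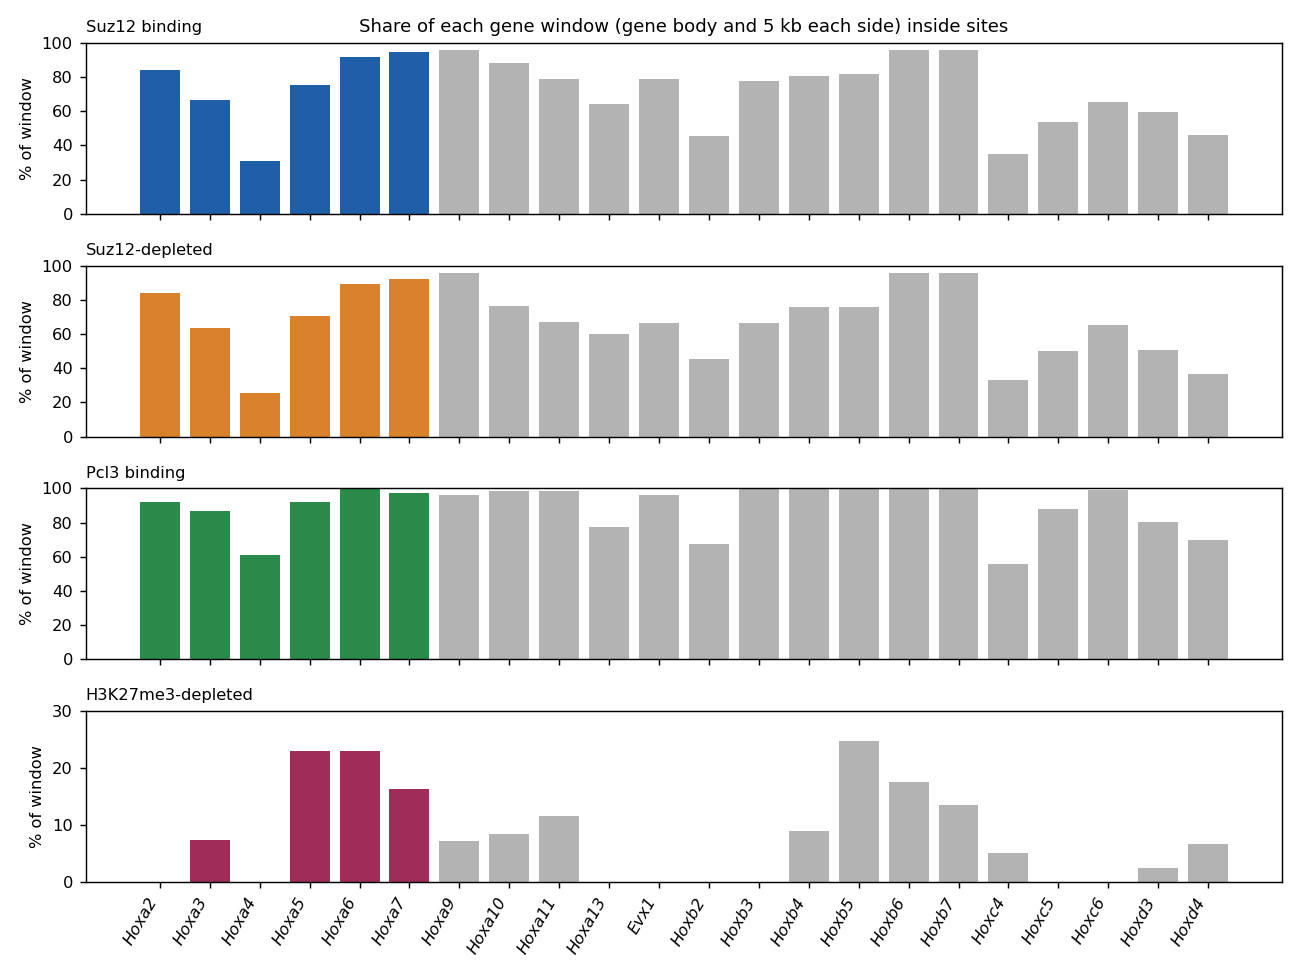
Percent of each gene's window (gene body and 5 kb on each side) inside sites of each list, with the 6 anterior Hoxa genes in color and, in gray, Hoxa9, Hoxa10, Hoxa11, Hoxa13, Evx1 and the paralogues of groups 2 to 7; the lowest panel has its own scale. Hoxa4 is the lowest of the 6 in the upper 3 panels, and Hoxa2 and Hoxa4 are at 0 in the lowest.

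Within paralogue groups the values ran side by side in part. Windows of neighboring genes share sites here too, as those of Hoxa5 and Hoxa6 do. The Hoxb genes lie on chromosome 11, where 17.7% of Suz12 sites shared bases with an H3K27me3-depleted site, against 3.56% on chromosome 6. The part of paralogue group and of chromosome in these values was not tested. In group 5 the H3K27me3-depleted share was 23% for Hoxa5 and 24.8% for Hoxb5, with 0 for Hoxc5. In group 6 it was 23.1% for Hoxa6 and 17.5% for Hoxb6, with 0 for Hoxc6. In group 7 it was 16.4% for Hoxa7 and 13.6% for Hoxb7. In group 2 it was 0 for both Hoxa2 and Hoxb2. In group 3 it was 7.5% for Hoxa3 and 2.48% for Hoxd3, with 0 for Hoxb3. In group 4, Hoxb4 had 9.03%, Hoxc4 5.2% and Hoxd4 6.69%, whereas Hoxa4 had 0. These shares depended on the window. With only the coding span of the transcript with the longest coding sequence and 5 kb on each side, Hoxa7 had 16.3% but Hoxb7, Hoxa3, Hoxd3 and Hoxc4 had 0, the paralogues with such a site went from 7 to 4 and their median share from 5.2% to 0, and the members with one went from 4 to 3. The stretch from Hoxb2 to Hoxb7 was covered by 3 Pcl3 sites, the widest of 81300 bp, where the anterior Hoxa stretch had 15.

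Cofactors and regulators of Hox genes were less uniform. Of 14 such genes, 11 had a Suz12 site, 10 a Suz12-depleted site, 9 a Pcl3 site and 3, Meis1 and Cdx2 among them, an H3K27me3-depleted site. Pbx2 and Pbx4, which encode partners that bind DNA together with Hox proteins, had no site in any list. The median Suz12 share was 5.11%. Cdx2, a homeodomain activator of Hox genes, reached 65.6%.

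Among the 5 protein-coding genes outside the cluster whose 4 shares lay nearest to the members' mean (73.8% Suz12, 70.6% Suz12-depleted, 88.1% Pcl3 and 11.7% H3K27me3-depleted) were Otx1, Barhl2, Foxa2 and Zic2, all transcription factor genes. The distance, taken as the straight-line distance over the 4 percentages, was 7.66 for Otx1, 11 for Barhl2 and 12.1 for both Foxa2 and Zic2. All 4 lay below the members' H3K27me3-depleted mean: Otx1 had 5.52%, Barhl2 6.59%, and Foxa2 and Zic2 had 0.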

How the data were processed

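ChIP-seq of Suz12-TAP, H3K27me3 and Pcl3-TAP and the matching inputs were used as 4 deposited site lists. According to the submitters' processing notes reads were aligned with Bowtie (version not given in the sources used here) to mm9. Per the study's methods only reads with a single best place were kept, paired libraries were scaled by their background, windows were called with the Skellam distribution, and adjoining windows were joined. The values deposited by the authors are the p-value of each site. The lists give no read counts, so the depth behind each site is unknown, and neither intervals nor fold changes were computed.

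Members and gene lists were chosen with earlier results of these data known. Gene spans came from GENCODE vM1 (mm9), with entries of 1 symbol joined where they overlap. Overlap of at least 1 bp, covered bases, composition and exact genome-wide counts of 30-base words were computed with Python 3.11.15, NumPy 2.4.6 and pandas 2.3.3, and the overlap functions were tested on simulated data. Deposited starts, counted from 0, were raised by 1. Named were the 6 members and their sites, the rest of the cluster, paralogues of groups 2 to 7, 14 cofactors and regulators, genes overlapping the stretch, and the 5 genes nearest in the 4 shares. The pair of primers and the stretches printed were chosen after the values were seen. Some genes of these lists are not reported here. Other windows, stricter p-values and other overlap rules were tried as alternatives.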

Additional observations from a re-analysis of the deposited data

How the results depend on the processing

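Of 88 recomputed counts, 76 stayed within 1.5 times the value reported, and the 12 that did not were all lower. The counts of genes with Suz12, Suz12-depleted and Pcl3 sites stayed at 6 under every alternative run. Joining sites less than 500 bp apart, an alternative chosen after seeing the data, left 7 Suz12, 7 Suz12-depleted and 8 Pcl3 sites, since the gaps between them are short. Only H3K27me3-depleted results moved beyond 1.5 times with a stricter p. With p of at most 1e-10, 1 site remained and 1 Suz12 site overlapped it. With p of at most 1e-12 there were 0 sites, 0 genes and 0 overlapping Suz12 sites. In the Suz12-depleted list the p is that of binding in scramble cells. A stricter p there did not vary the threshold for the loss, so the lists cannot be compared in this respect. Without flanks 2 genes, Hoxa3 and Hoxa6, had an H3K27me3-depleted site. With 10 kb flanks 5 genes had one, Hoxa4 among them, so which members lacked such a site depended on the window. When sharing was judged by centers, 10 Suz12 sites had a Pcl3 center within 2 kb and 5 within 500 bp, and 2 had an H3K27me3-depleted center within 500 bp, as the sites differ in width. The study's own rule for overlapping binding sites was centers within 2 kb, stricter here than 1 shared bp. Shares over all Suz12 sites under the center rules are not given here, so these counts have no background. No paired analysis was possible because each condition has 1 library and no result comes from a test. No replicate could be left out for the same reason. No result met the rules for a closer look, which need groups of samples.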
